A study of Rattus norvegicus with 29 samples.

Results

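The duodenum of sham-operated rats was described from 11 of the 29 arrays of a study of bariatric surgery. These are the 6 arrays labelled sham for VSG (vertical sleeve gastrectomy) and the 5 arrays labelled sham for RYGB (Roux-en-Y gastric bypass). They were chosen by label alone. All 11 rats were male, wild-type Long-Evans rats of 8 to 10 weeks, and each gave 1 array of total duodenal RNA. Solid food was replaced by a liquid diet, Osmolite, on the day before surgery. In the VSG sham the belly was opened and blunt forceps were pressed on the stomach along the line that the sleeve operation cuts, whereas the labels describe no separate sham procedure for RYGB. These rats are therefore sham-operated and not untouched. Another sham group is labelled pair-fed and was left out. The labels call none of the 11 rats freely fed in so many words. Rats that had VSG (6 arrays) or RYGB (6 arrays) entered only where the sham values are set beside them. Neither the interval between surgery and sampling nor an array batch is stated, so the set of an array and any batch it belonged to cannot be told apart.

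The duodenum is the first stretch of small intestine. Bile and pancreatic juice enter it, and the pancreas lies against its wall. Its absorptive cells carry digestive enzymes on a brush border, repack dietary fat into chylomicrons with apolipoproteins and cytoplasmic lipid carriers, and take up iron and calcium through dedicated transporters. Goblet cells secrete mucus, Paneth cells secrete antimicrobial peptides, and scattered endocrine cells release hormones such as GIP and ghrelin. Brunner's glands under the mucosa mark the proximal duodenum. A piece of duodenal wall also holds immune cells, muscle, nerves and vessels, and in such bulk tissue fewer cells of a type and less RNA per cell cannot be told apart.

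Values are log2 RMA values, and a step of 1 is a doubling. The arrays were alike in level, with medians over 36685 rows between 2.80 and 2.97, and every pair of sham arrays correlated at 0.961 to 0.976 across these rows. Of 14557 genes, the median had a mean of 4.08. Probe sets differ in how brightly they bind, so brightness places a gene only roughly and no order between genes is read from it. Genes of intestinal identity were bright. The 12 measured genes of intestinal identity had a median level of 9.39, with the adhesion protein gene Cdh17 at 10.85 to 11.02, the lectin gene Lgals4 at 11.08 to 11.35 and the proximal-gut transcription factor gene Gata4 at 7.16 to 7.98. Of 10 measured stomach and pyloric genes 6 were under the median of every array, among them Gkn1 (1.51 to 2.63), Gkn2 (0.96 to 2.11) and Atp4b (1.75 to 2.79), as was the posterior Hox gene Hoxb13 (1.21 to 1.83). The other 4 were above it on every array. They were Tff1 (3.87 to 8.18), Capn8 (3.18 to 5.42) and the pepsinogen genes Pga5 (3.55 to 4.46) and, chosen after its values were seen, Pgc (3.02 to 4.41). Over all genes 4338 of 14557 were under the median of every array. The median of the 8 measured liver genes was 2.76. Pdx1, the classical duodenal and pancreatic factor, had no row of its own and was not analysed here.

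The 25 brightest genes, after 10 ribosomal protein rows were passed over, held carriers of fat and vitamins, brush border enzymes, defence genes and mitochondrial genes next to others. Among them were Apoa4, an apolipoprotein of chylomicrons (11.79 to 12.05 over the 11 arrays), Fabp1 (11.39 to 11.68) and Fabp2 (11.28 to 11.77), which carry fatty acids inside the cell, and Rbp2, the intestinal carrier of retinol (11.45 to 11.68). S100g, the calcium carrier calbindin-D9k, was at 11.47 to 11.66. The brush border enzymes were represented by Anpep, aminopeptidase N (11.18 to 11.48), and Akp3, an intestinal alkaline phosphatase (11.45 to 11.72). Defence was represented by the Paneth cell defensin gene Defa6 (11.24 to 11.82), by Zg16, a lectin of goblet cell mucus that pancreatic cells make too (11.42 to 11.66), and by B2m, the light chain of MHC class I (11.62 to 11.75). Also in this set were Prap1, Lypd8l2, Phgr1, Serf2, the cytokine gene Mif, the translation factor gene Eef1a1, the ferritin light chain gene Ftl1, the uncoupling protein gene Ucp2, the glutathione transferase gene Mgst3 and the mitochondrial genes Mdh2, Atp5me, Atp5mg, Cox6a1 and Cox8a. The plot of the brightest genes shows every rat. Mean levels of the 25 ran from 11.26 to 12.16, which is near the top of the scale, where an array can compress differences.

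**Figure D1:**
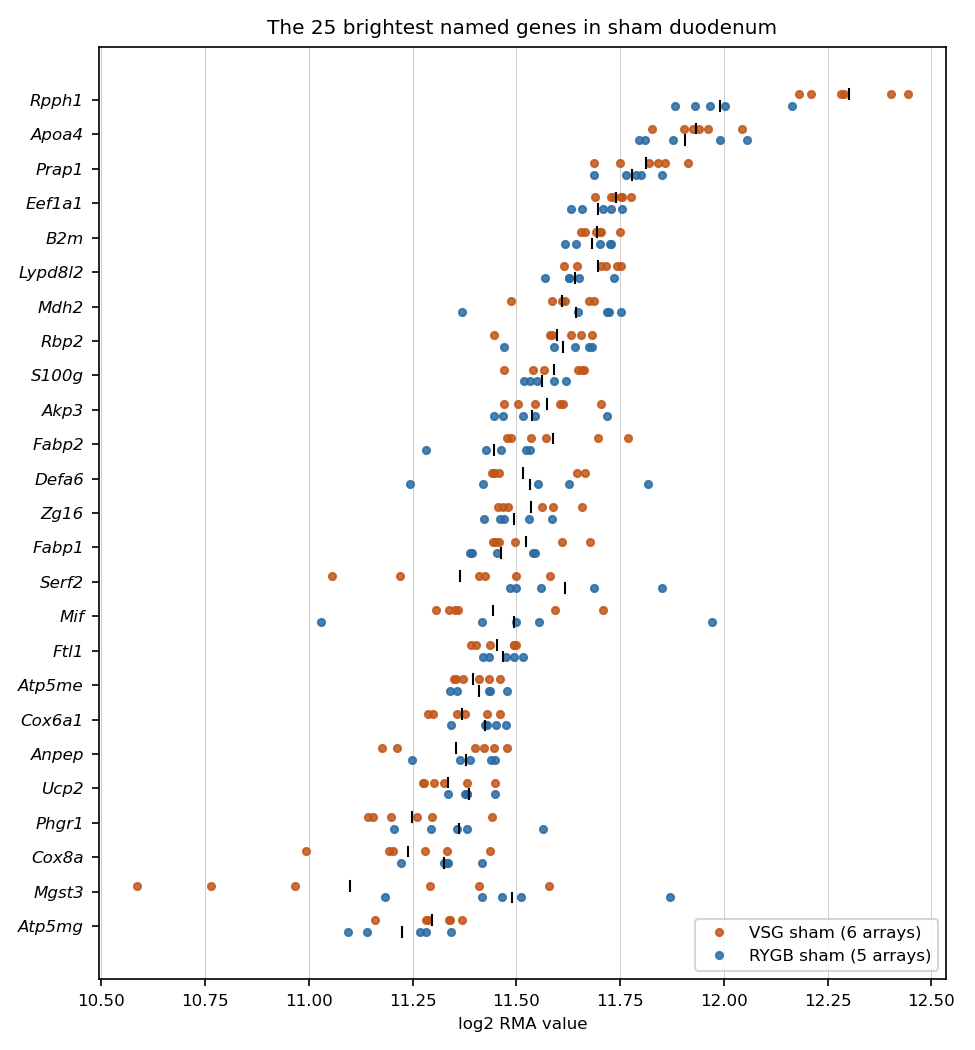
The log2 RMA value (horizontal axis) of the 25 brightest named genes in the 6 VSG sham arrays (upper row of points for each gene) and the 5 RYGB sham arrays (lower row), 1 point per rat with the set mean as a vertical tick. The sets overlap for every gene but Rpph1, whose VSG sham points lie at 12.18 to 12.44 and whose RYGB sham points lie at 11.88 to 12.16; Mgst3 has the widest scatter.

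Of the 25 brightest genes 23 varied less between rats than the median gene. The SD within sets, pooled over both sets with 9 degrees of freedom, was 0.04 to 0.33 among the 25, against a median of 0.24 over all genes. Eef1a1 and B2m had an SD of 0.04 and 0.04, and Apoa4 one of 0.09. Mgst3 was the most variable of the set (SD 0.33), with 10.97, 11.29, 10.59, 10.77, 11.58 and 11.41 in the VSG sham rats and 11.51, 11.47, 11.87, 11.42 and 11.18 in the RYGB sham rats. It was lowest in VSG sham replicates 3, 4 and 1 and the sets overlapped. The RNase P RNA gene Rpph1 was the only one of the 25 whose sets did not overlap, at 12.18 to 12.44 in VSG sham against 11.88 to 12.16 in RYGB sham. Its difference of 0.31 ± 0.10 (SE) did not pass the test over all genes (limma, adjusted p = 0.88).

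Lipid absorption genes varied least among the gene lists. Of the 17 measured, 13 were among the 500 brightest, and their median SD of 0.150 was the lowest of the 41 gene lists examined. The 500 brightest genes had a median SD of 0.136, so the list was no steadier than genes of such brightness. The list mean ran over 9.67 to 9.83 in VSG sham and 9.56 to 9.85 in RYGB sham. Its most variable members were Dgat2 (SD 0.35, 8.67 to 9.85) and Mogat2 (SD 0.32, 7.08 to 8.21), which make triglyceride from absorbed fatty acids and monoglycerides. The start regions of Fabp2, of this list, and of Rbp2, a bright gene outside it, are shown. Both hold the letters TGNNCTTTG, a core of the direct repeat that nuclear receptors such as HNF4 bind. This element is described for these genes in rodents. The sequences come from RefSeq on build GRCr8, 250 bases before to 50 after the start, with matches on either strand in capitals. The motif was chosen after the sequences were seen, and 6.10% of 33365 distinct rat start regions of this length hold it.
Fabp2 (chr2:213724379-213724678, plus strand): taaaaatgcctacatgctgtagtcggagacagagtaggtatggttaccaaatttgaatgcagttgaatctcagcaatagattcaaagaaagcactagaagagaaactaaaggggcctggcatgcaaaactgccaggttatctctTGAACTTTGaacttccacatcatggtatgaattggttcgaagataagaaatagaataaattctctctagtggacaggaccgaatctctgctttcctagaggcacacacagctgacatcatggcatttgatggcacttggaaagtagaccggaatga
Rbp2 (chr8:107963292-107963591, plus strand): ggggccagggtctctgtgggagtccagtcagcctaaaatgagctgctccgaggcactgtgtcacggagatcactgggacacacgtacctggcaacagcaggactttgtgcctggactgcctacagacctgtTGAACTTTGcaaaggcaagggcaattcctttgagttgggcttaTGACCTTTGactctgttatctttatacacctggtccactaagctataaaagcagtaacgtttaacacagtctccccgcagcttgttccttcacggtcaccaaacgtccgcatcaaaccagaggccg
The Fabp2 match begins at position -106 from the start and the Rbp2 matches at -119 and -76. They describe letters and do not show a site in use.

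Lactase was the most variable of the 7 measured sugar digestion genes, whose median SD was 0.26. The sucrase-isomaltase gene Si lay at 10.61 to 10.96 in VSG sham and 10.69 to 10.84 in RYGB sham, the glucose transporter genes Slc5a1 and Slc2a2 at 9.70 to 10.32 and 9.17 to 9.71 over all 11 arrays, and the fructose transporter gene Slc2a5 at 7.92 to 9.02. Lct, which encodes lactase, had values of 9.08, 8.93, 9.46, 9.40, 9.45 and 8.92 in VSG sham and 8.36, 8.07, 7.49, 7.03 and 9.05 in RYGB sham. The RYGB sham rats were spread widely, and only RYGB sham replicate 5 reached the VSG sham values. The difference was 1.20 ± 0.40 (SE), 95% interval 0.40 to 2.01, and was not called (limma, adjusted p = 0.88). Peptide digestion was led by Anpep, by Ace, a brush border dipeptidase (8.96 to 10.43, SD 0.51), and by Tmprss15, enteropeptidase, which activates trypsinogen (9.42 to 10.03, SD 0.17). Ace was lowest in RYGB sham replicate 3 (8.96) and VSG sham replicate 2 (9.14).

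Iron genes, which the series title is about, had 3 of 21 measured members among the 500 brightest and 2 under the array median on all 11 arrays. Their median SD was 0.23, close to the 0.24 of all genes. Of all 14557 genes, 4338 were under the array median on all 11 arrays. Ftl1 stayed at 11.39 to 11.52. The basolateral exporter ferroportin, Slc40a1, was at 9.29 to 10.02 in VSG sham and 9.56 to 10.01 in RYGB sham, and its partner ferroxidase Heph at 7.75 to 8.21 in VSG sham and 7.86 to 8.12 in RYGB sham. The transferrin receptor gene Tfrc was at 7.83 to 8.40 in VSG sham and 7.84 to 8.12 in RYGB sham. Cybrd1, the ferric reductase of the duodenal brush border, varied most, at 9.89, 10.55, 9.47, 10.82, 10.37 and 10.49 in VSG sham and 11.48, 10.69, 11.80, 10.78 and 10.13 in RYGB sham. RYGB sham replicates 1 and 3 were above every VSG sham rat and the other RYGB sham rats lay among them. The difference was -0.71 ± 0.29 (SE), interval -1.31 to -0.11, and was not called (limma, adjusted p = 0.88). Hmox1, which breaks down haem, was next in spread (SD 0.55), with 6.80, 8.35, 6.62, 7.79, 7.37 and 6.93 in VSG sham and 7.39, 7.65, 7.28, 7.65 and 6.81 in RYGB sham. Of the 21 genes, 0 were called (0% of all genes), 11 differences were above 0 and 10 below, with a median of 0.03. At an unadjusted p under 0.05 stood 3 of the 21, all lower in VSG sham: Cybrd1 and, chosen after their values were seen, Slc25a28 (-0.30) and Steap2 (-0.32). Of all genes 2.75% were lower at that level.

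No calcium gene was called, and neither was any other gene measured. Besides S100g, the basolateral calcium pump gene Atp2b1 was at 9.67 to 10.33 and the vitamin D receptor gene Vdr at 9.73 to 10.28. The apical channel gene Trpv6 was at 6.66 to 7.73, and Cyp24a1, which degrades active vitamin D, was at the low end (1.91 to 2.9). Of the 8 measured genes 7 had differences below 0 (median -0.20) and 0 were called (0% of all genes). Over all genes 7321 of 14557 differences were below 0.

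No hormone gene was called between the sets, where 0% of all genes were. Gip, the incretin of proximal gut K cells, was at 8.96 to 9.48 in VSG sham and 8.87 to 9.65 in RYGB sham (difference -0.01 ± 0.13, SE), and the somatostatin gene Sst at 8.39 to 8.97 in VSG sham and 8.67 to 9.17 in RYGB sham. Ghrl, which encodes ghrelin, was at 7.46 to 7.74 in VSG sham and 7.27 to 8.22 in RYGB sham, and the guanylin gene Guca2a, which sets epithelial salt secretion, at 10.32 to 10.90 throughout. Gcg, the source of GLP-1 in the gut, was lower on the scale at 4.63 to 5.81 in VSG sham and 4.55 to 5.30 in RYGB sham (difference 0.28 ± 0.29, SE). It was highest in VSG sham 1, the rat with the highest pancreas mean. The Gcg difference was 0.16 without that rat and 0.08 with the pancreas mean as covariate. The part of pancreatic tissue in the Gcg values was not tested. Of the 13 measured hormone genes, 4 differences were above 0, 9 below and 0 called, against 7321 of 14557 below 0 over all genes. The most variable hormone genes were Iapp and Pyy, taken up with the arrays in which they were high. Of the secretory granule genes, Chgb was at 8.46 to 9.03 and Cpe, which trims prohormones, at 4.58 to 6.41 (SD 0.47). Resp18, a gene of endocrine granules, was at 4.98 to 6.10, and Vgf, a neuropeptide precursor gene, at 2.07 to 3.33.

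Secretory and renewal genes of the mucosa were measured as well. Goblet cell genes Tff3 and Clca1 were at 10.62 to 11.31 and 10.37 to 10.61, and Spink4, another goblet product, at 9.47 to 11.19. The Paneth defensin genes Defa8 and Defa24 were at 10.80 to 11.25 and 10.41 to 10.82 and the lysozyme gene Lyz2 at 9.71 to 10.29. Tff2, a Brunner's gland peptide, was at 3.42 to 5.70 in VSG sham, highest in replicate 1, and at 3.39 to 4.54 in RYGB sham. The stem cell genes Lgr5 and Ascl2 were at 4.06 to 5.00 and 3.46 to 4.31, and the proliferation genes Pcna and Rrm2 at 8.21 to 8.92 and 6.92 to 7.79. Among wall and immune genes, the plasma cell gene Jchain was at 10.47 to 10.97, the T cell gene Cd3g at 8.52 to 9.34, the mucosal mast cell protease gene Mcpt1 at 7.66 to 9.0, the invariant chain gene Cd74 at 10.78 to 11.15 and the smooth muscle actin gene Actg2 at 10.72 to 11.38. Haemoglobin genes Hba-a1 and Hbb-b1 at 7.50 to 8.91 and 5.07 to 6.70 mark the blood in each piece, and Slc4a1, the anion exchanger of red cells, was at 3.31 to 4.13.

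The remaining lists are given by their brightest and most variable genes, over all 11 arrays unless a set is named. Amino acid uptake was represented by Slc1a1, a glutamate transporter gene (3.09 to 4.97, SD 0.56), and intestinal identity by Klf5, a crypt transcription factor gene (9.95 to 10.28). Of the genes chosen to mark the ileum or colon, Clca4 and the chloride exchanger gene Slc26a3 were bright in every rat, at 9.50 to 9.78 and 9.16 to 10.04, so these do not mark distal gut here. Duox1, an oxidase gene set with the Brunner's gland markers, was at 1.58 to 2.80. Of the liver genes, Tf and Ttr were at 3.46 to 4.77 and 3.30 to 4.58 and Serpina1 at 3.12 to 4.59, while Alb was at 2.40 to 3.83 (SD 0.44). The goblet and neighbouring epithelial list varied most in the chemokine gene Ccl9 (2.35 to 4.05, SD 0.60).

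Among crypt and proliferation genes, Hopx was at 8.55 to 9.16, the salt cotransporter gene Slc12a2 at 7.74 to 8.12 and the Wnt target Ephb2 at 5.77 to 6.64, and the cell cycle genes Cdca3, Rrm1 and Mcm3 were at 7.26 to 8.01, 6.00 to 7.17 and 4.71 to 6.08. The cell cycle list had 15 differences above 0 and 10 below, with 0 called (0% of all genes). Tuft cells, the chemosensory cells that release interleukin 25, were marked by Ptgs1 (6.18 to 6.47) and Alox5ap (4.89 to 5.93). Of the mast cell genes, Fcer1g and Cpa3 were at 7.35 to 8.19 and 5.75 to 6.76 and the protease gene Mcpt10 varied most (SD 0.57). In the T cell list, Ccl5 and Cd4 were at 7.70 to 9.18 and 4.92 to 5.55 and the receptor genes Cd247 and Cd8b had SDs of 0.58 and 0.49.

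Plasma cell genes Xbp1 and Sdc1, both of which epithelium also expresses, were at 7.38 to 7.80 and 6.75 to 7.63, while Mzb1, more particular to these cells, varied more (SD 0.75, 5.43 to 7.60). Macrophage complement genes C1qc and C1qa were at 7.07 to 8.04 and 7.17 to 7.89, and the chemokine receptor genes Cx3cr1 and Xcr1, of macrophages and of cross-presenting dendritic cells, at 3.11 to 5.21 and 2.52 to 3.78. The MHC class II genes RT1-Da, RT1-DMb, RT1-Ba and RT1-DOb were at 8.89 to 9.79, 7.87 to 8.83, 6.43 to 7.51 and 1.58 to 2.61. Of the genes that interferon raises, the immunoproteasome genes Psmb8 and Psmb9 were at 8.88 to 9.61 and 8.27 to 8.71 and the GTPase gene Ifi47 at 7.90 to 8.92, and Ifit3 and Rsad2 spread most (SD 0.54 and 0.52). The muscle genes Tagln, Myl9 and Hspb6 were at 9.29 to 10.22, 9.12 to 9.99 and 8.42 to 9.29. The mean of the muscle list as a whole was highest in VSG sham 4, at 8.61. It was 7.99 to 8.29 in the other VSG sham rats and 8.03 to 8.21 in RYGB sham. Nerve genes Npy and Cartpt were at 5.55 to 6.84 and 5.12 to 6.35, and the glial gene S100b at 2.49 to 4.61. The matrix genes Sparc, Dcn and Bgn were at 9.22 to 9.79, 8.11 to 8.78 and 7.49 to 8.07, and Timp1, which inhibits matrix proteases, was at 5.79 to 7.01. The vessel genes Plvap and Cdh5 were at 7.29 to 7.94 and 5.24 to 6.07, the growth factor receptor gene Flt1 at 4.71 to 5.64, the junction gene Cldn5 at 3.48 to 4.59 and the receptor gene Tie1 at 3.21 to 4.32. Of the genes listed for fat tissue, Cidec was at 8.80 to 9.47 and the fatty acid carrier gene Fabp4 at 7.91 to 9.08. The adipsin gene Cfd was at 3.81 to 5.08. Adipoq, at 1.60 to 2.67, was under the median of every sham array, so Cidec is not read as a mark of fat tissue here.

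The 9 metabolic and stress lists had median SDs of 0.21 to 0.36, against 0.24 over all genes. The immediate early gene Atf3 varied (SD 0.55, 4.51 to 6.77) and Jun less so (SD 0.28, 8.08 to 8.96), and the chaperone gene Hsph1 was at 7.73 to 8.53. The cholesterol synthesis genes Sc5d and Msmo1 and their regulator Insig1 were at 9.14 to 9.95, 8.35 to 9.37 and 8.63 to 9.55. In fatty acid synthesis, malic enzyme, Me1, was at 8.90 to 9.65, the pyruvate kinase gene Pklr at 8.84 to 9.27 and the desaturase genes Scd2 and Scd at 8.44 to 9.27 and 2.81 to 4.05, and the lipogenic gene Thrsp varied most (SD 0.56). The fatty acid oxidation genes Hadha, Acaa2 and Acadm were at 9.87 to 10.27, 9.56 to 10.03 and 9.44 to 9.85, and Acot1 and Cyp4a3, targets of PPAR alpha, had SDs of 1.06 and 0.79. The bile acid exporter genes Slc51a and Slc51b were at 8.51 to 9.39 and 6.89 to 8.11, and Nr0b2, a nuclear receptor that bile acids raise, at 6.79 to 7.90. Of the xenobiotic genes, Gstp1, Por, Cyp2j4 and Cyp2b1 were at 9.60 to 10.04, 9.35 to 9.97, 10.06 to 10.38 and 5.94 to 9.14. The hypoxia genes Pgk1, Mxi1 and Ero1a were at 8.69 to 9.34, 8.10 to 8.81 and 8.08 to 8.37, and Ankrd37 and Adm, the adrenomedullin gene, at 2.25 to 3.67 and 3.72 to 5.00. The folding chaperone genes Hspa5 and Calr were at 9.85 to 10.33 and 9.13 to 9.85, and the stress response genes Atf4 and Sesn2 at 9.49 to 9.81 and 2.83 to 4.49. The copper and zinc genes Atox1 and Mt2A were at 9.94 to 10.92 and 9.08 to 10.23 (SD 0.34), the copper importer gene Slc31a1 at 8.99 to 9.49 and the zinc importer gene Slc39a8 at 5.65 to 6.59.

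The 15 genes with the lowest SD among the 500 brightest, after 6 rows were passed over, had an SD of 0.040 to 0.061. They were Atp5f1b, Eef1a1, B2m, Ftl1, Atp5mpl, Atp5me, Txn1, Cdc42, Uqcrh, Lypd8l2, Ucp2, Psma7, Cox4i1, Uqcrc2 and Cox6a1. Atp5f1b, the catalytic subunit of ATP synthase, was at 10.67 to 10.81 in VSG sham and at 10.73 on every RYGB sham array. The small GTPase gene Cdc42 was at 9.43 to 9.55 in VSG sham and 9.38 to 9.52 in RYGB sham. The part of compression in low spread at the top of the scale was not tested.

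**Figure D2:**
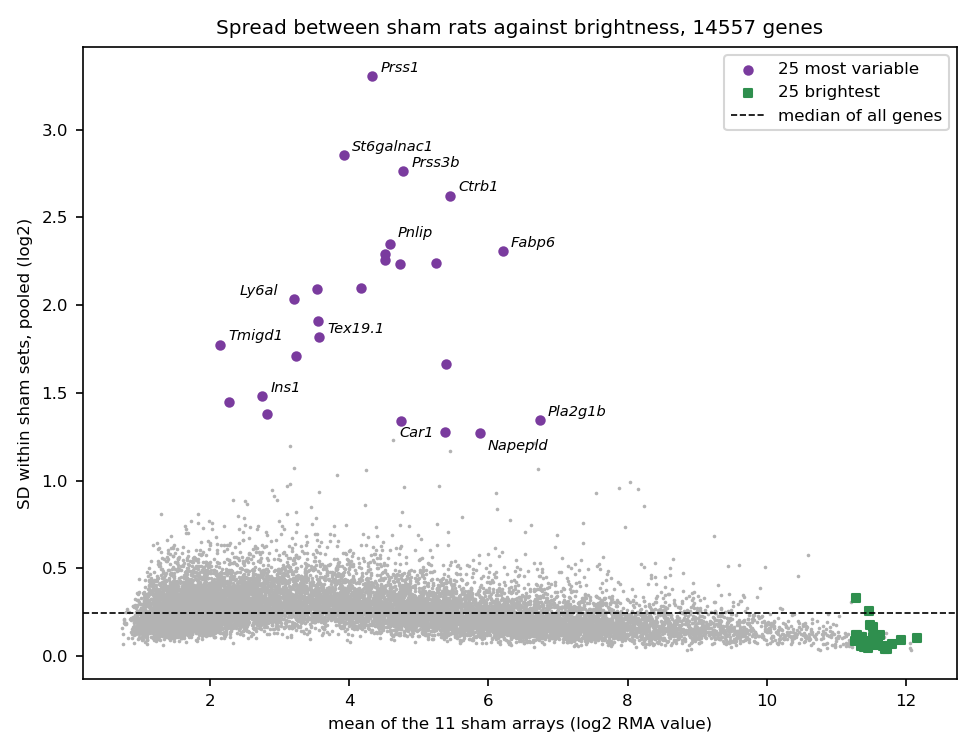
Pooled SD within sham sets (vertical axis, log2) against the mean of the 11 sham arrays (horizontal axis, log2 RMA value) for 14557 genes, with the 25 most variable genes as circles and the 25 brightest as squares. The brightest genes lie mostly under the median SD of 0.24, while the most variable lie between 1.27 and 3.31, at low to middle mean levels.

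At the other end, 33 genes (0.227%) had an SD of at least 1, and 14 of these were digestive enzymes or other genes of the exocrine pancreas list. Prss1, cationic trypsinogen, was the most variable gene measured, with 9.65, 1.89, 6.29, 9.01, 5.92 and 0.82 in VSG sham replicates 1 to 6 and 7.92, 1.33, 1.96, 1.89 and 0.96 in RYGB sham replicates 1 to 5. It was high in VSG sham 1, 4, 3 and 5 and in RYGB sham 1 and low in the other 6 rats. Ctrb1, chymotrypsinogen B, was at 10.57, 3.53, 6.23, 8.87, 6.71 and 2.84 in VSG sham and 7.91, 2.98, 3.57, 3.88 and 2.94 in RYGB sham, with the same 5 rats on top. The elastase genes Cela3b (1.73 to 8.69) and Cela2a (3.02 to 9.73), the carboxypeptidase gene Cpa1 (1.56 to 8.03), the lipase genes Pnlip (2.16 to 9.05), Cel (2.38 to 9.18) and Pnliprp1 (1.70 to 8.04), the phospholipase gene Pla2g1b (5.21 to 9.65), the zymogen granule gene Sycn (2.40 to 9.07), the ribonuclease gene Rnase1 (1.62 to 7.12) and the proteases Ctrc (3.76 to 9.31) and Ctrl (3.30 to 7.98) were all highest in VSG sham 1. So were the trypsinogen-type genes Prss3b (1.94 to 9.69), PRSS2 (2.19 to 8.62) and Prss3bl1 (1.27 to 6.24), which are closely related copies, so that their probes may not tell them apart.

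The mean of the 20 measured pancreas genes was 7.87, 3.54, 5.25, 6.62, 5.03 and 3.53 in VSG sham 1 to 6 and 5.88, 3.57, 3.63, 3.85 and 3.47 in RYGB sham 1 to 5. Of the 20, Zg16 and Reg1a are gut genes as well, at 11.42 to 11.66 and 7.14 to 9.78. The acinar transcription factor gene Ptf1a was under the array median on all 11 arrays, at 1.77 to 2.58. For 18 of the 20 the difference between sets was above 0, with a median of 1.41, against 7236 of 14557 genes and a median of -0.0011 over all genes. None of the 20 was called (0% of all genes). Prss1 averaged 5.59 ± 3.61 in VSG sham (SD, n = 6) and 2.81 ± 2.88 in RYGB sham (SD, n = 5), a difference of 2.78 ± 1.62 (SE) with an interval of -0.54 to 6.11 (limma, adjusted p = 0.97). Without RYGB sham 1 the difference was 4.06. In rats that had surgery Prss1 lay at 6.28 to 10.16 after VSG and 2.87 to 10.03 after RYGB.

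The start regions of 3 of these genes are shown because they hold an E-box CACCTG and a TTTCCC box. The acinar factor PTF1 binds these motifs as a textbook pair. Both strands were searched, with no spacing between the motifs required. Matches are in capitals, and the sequences are RefSeq's on build GRCr8.
Prss1 (chr4:71330999-71331298, plus strand): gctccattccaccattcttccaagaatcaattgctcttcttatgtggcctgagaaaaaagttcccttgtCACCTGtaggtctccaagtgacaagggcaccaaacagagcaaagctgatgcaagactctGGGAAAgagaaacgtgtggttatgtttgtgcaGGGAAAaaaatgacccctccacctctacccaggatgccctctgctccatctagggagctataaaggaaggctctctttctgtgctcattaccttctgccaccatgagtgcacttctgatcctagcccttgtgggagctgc
Ctrb1 (chr19:56566929-56567228, minus strand): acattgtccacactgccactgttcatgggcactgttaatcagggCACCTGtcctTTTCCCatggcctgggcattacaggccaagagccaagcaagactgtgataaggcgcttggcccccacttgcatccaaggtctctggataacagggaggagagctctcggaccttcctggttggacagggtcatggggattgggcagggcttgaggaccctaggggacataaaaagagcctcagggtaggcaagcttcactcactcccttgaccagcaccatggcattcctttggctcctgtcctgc
Cela3b (chr5:154920284-154920583, minus strand): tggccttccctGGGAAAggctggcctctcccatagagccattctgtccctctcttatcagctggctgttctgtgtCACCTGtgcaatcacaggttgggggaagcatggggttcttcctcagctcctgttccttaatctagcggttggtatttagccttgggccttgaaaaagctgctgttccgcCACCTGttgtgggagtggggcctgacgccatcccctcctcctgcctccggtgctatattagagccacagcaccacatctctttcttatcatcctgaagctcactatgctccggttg
In Ctrb1 the boxes begin at -206 and -196. In Prss1 the E-box begins at -181 and the TTTCCC boxes, on the other strand, at -122 and -90. In Cela3b the E-boxes begin at -175 and -66 and the box on the other strand at -239. Of these 3 sequences only that of Ctrb1 has the motifs close together, so Prss1 and Cela3b do not show them as a pair. Of the 17 genes of the pancreas list with a sequence, 5 hold both motifs at any spacing, and 4.39% of the 33365 start regions do. These 3 were chosen for holding them, so the count describes letters only.

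The insulin genes were high in 1 rat. Ins1, a rat insulin gene, was at 7.25, 2.9, 1.96, 2.92, 2.97 and 2.20 in VSG sham and 2.62, 1.52, 2.20, 1.72 and 2.04 in RYGB sham, and Ins2, the other, at 6.81, 2.01, 2.38, 2.60, 3.71 and 2.32 in VSG sham and 2.52, 2.28, 2.11, 1.55 and 2.68 in RYGB sham. Only VSG sham 1, which also had the highest acinar levels, stood apart. Iapp, the amylin gene of beta cells, was 5.40 there and 2.35 to 3.51 in the other 10 rats. The beta cell zinc transporter gene Slc30a8 was 2.23 in that array, within 1.65 to 2.23 for all 11. The 3 brightest genes of the islet list showed no such gap. Ucn3, the urocortin 3 gene, was lowest in that rat, at 3.26 within 3.26 to 4.57, the pancreatic polypeptide gene Ppy was 3.96 within 3.27 to 4.10, below RYGB sham 3 and 4, and the beta cell factor gene Mafa was 3.85, the highest value, with RYGB sham 4 next at 3.71. VSG sham 4, second in acinar level, had Ins1 at 2.92. Without VSG sham 1 the Ins1 difference between sets was 0.57 and with it 1.35.

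A second group of genes was high together in VSG sham 4 and 6. Fabp6, the ileal bile acid carrier, was at 5.44, 4.72, 5.35, 11.14, 4.99 and 10.94 in VSG sham and 4.60, 5.80, 5.31, 4.99 and 5.00 in RYGB sham. The 2 high arrays were 5.14 above the next, and the 11 rats spanned 92.9-fold. Tmigd1, an adhesion protein gene of the brush border, was at 1.15, 1.3, 1.27, 5.98, 1.64 and 5.88 in VSG sham and 1.32, 1.00, 1.36, 1.29 and 1.41 in RYGB sham. Ly6al, a gene named after the Ly6 family, was at 2.15, 3.60, 1.72, 7.95, 3.64 and 7.72 in VSG sham and 2.10, 1.42, 1.64, 1.79 and 1.60 in RYGB sham. These were the 3 genes of 14557 for which both arrays lay at least 1 above all other sham arrays. A margin of 0.5 added Duox2, Slc7a2, Grhl1 and Gzmk, with values of at most 3.96, all chosen by this rule after the values were seen. The distal gut hormone gene Pyy was highest in the same arrays, at 4.70 and 4.12, against at most 2.92 in the other VSG sham rats and 2.70 to 3.72 in RYGB sham.

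The mean of the ileum or colon list, which includes Fabp6, was highest in that pair, at 5.98 in VSG sham 4 and 6.08 in VSG sham 6. It was 4.65 to 5.09 in the other VSG sham rats and 4.84 to 5.24 in RYGB sham. The distal genes Slc10a2, Car1 and Fgf19 did not single out that pair. The ileal bile acid uptake gene Slc10a2 was 5.99 and 5.45 in VSG sham 4 and 6 but 5.64 in RYGB sham 3, and the carbonic anhydrase gene Car1 was 7.80 in VSG sham 6 and 5.43 in VSG sham 4, against 4.22 to 6.33 in RYGB sham. Fgf19, an ileal signal that restrains bile acid synthesis, was 3.76 in VSG sham 4 and 2.01 in VSG sham 6. Cdh17, Gata4 and Si in VSG sham 4 were 10.85, 7.98 and 10.96, and in VSG sham 6 they were 10.97, 7.71 and 10.79, in or next to the range of the other rats. Fabp6 was 10.77 in 1 rat after RYGB, replicate 5, just under the lower of the 2 high sham values (10.94). In that rat Tmigd1 was 3.87 and Ly6al 5.38, each between its low and high sham levels. For Fabp6, 15 of the 18 arrays outside the 2 sham sets were at or below the low sham level. The other 3, that rat among them, were in between and 0 were at the high level. The set difference was 1.96 ± 1.02 (SE) for Fabp6, 1.59 ± 0.66 for Tmigd1 and 2.75 ± 0.90 for Ly6al, none called (limma, adjusted p = 0.95, 0.88 and 0.88). Without VSG sham 4 they were 1.15, 0.97 and 2.06, and without VSG sham 6 they were 1.19, 0.99 and 2.10.
The Fabp6 start region is shown because it holds the letters AGGTNA and their reverse complement TNACCT with 1 base between them, an inverted repeat of the kind the bile acid receptor FXR binds and one described for this gene. It was picked to match this sequence, on either strand, and 16 of the 33365 start regions (0.0480%) hold it.
Fabp6 (chr10:28569678-28569977, minus strand): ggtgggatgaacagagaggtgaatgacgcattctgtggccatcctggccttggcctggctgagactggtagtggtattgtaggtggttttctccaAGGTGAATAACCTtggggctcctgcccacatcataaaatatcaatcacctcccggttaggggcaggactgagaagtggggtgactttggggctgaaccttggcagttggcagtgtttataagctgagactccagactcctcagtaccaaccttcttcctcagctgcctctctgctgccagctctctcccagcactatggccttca
The match, in capitals, begins at position -155.

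The sialyltransferase gene St6galnac1, which adds sialic acid to the first sugar of mucin chains, was either high or low. It was at 2.05, 1.74, 7.34, 7.53, 2.14 and 7.58 in VSG sham and 1.33, 1.66, 2.01, 7.64 and 2.16 in RYGB sham. VSG sham 3, 4 and 6 and RYGB sham 4 were high and the other 7 rats were low, with a gap of 5.18 between the levels. Of the 18 arrays of the other groups, 9 were at or below the low level, 5 at or above the high one and 4 in between. The difference of 1.77 ± 1.52 (SE) between sets was 2.94 without RYGB sham 4 and 1.20 without VSG sham 6. Tex19.1, a germline gene, was spread as well, at 1.99, 6.13, 2.88, 6.25, 3.16 and 3.67 in VSG sham and 1.45, 5.79, 4.22, 1.84 and 1.95 in RYGB sham, with a difference of 0.96 ± 0.99 (SE), interval -1.07 to 2.99 (limma, adjusted p = 0.98). Napepld, which makes N-acylethanolamine lipids, was low in VSG sham 1 and 4, the rats with the highest pancreas means, at 3.46 and 3.16. Its other VSG sham values were 6.19, 6.37, 6.86 and 6.25, and those in RYGB sham were 7.0, 7.09, 6.48, 6.03 and 5.75. RYGB sham 1, next in pancreas mean, had 7.0. The part of pancreatic tissue in the Napepld values was not tested.

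**Figure D3:**
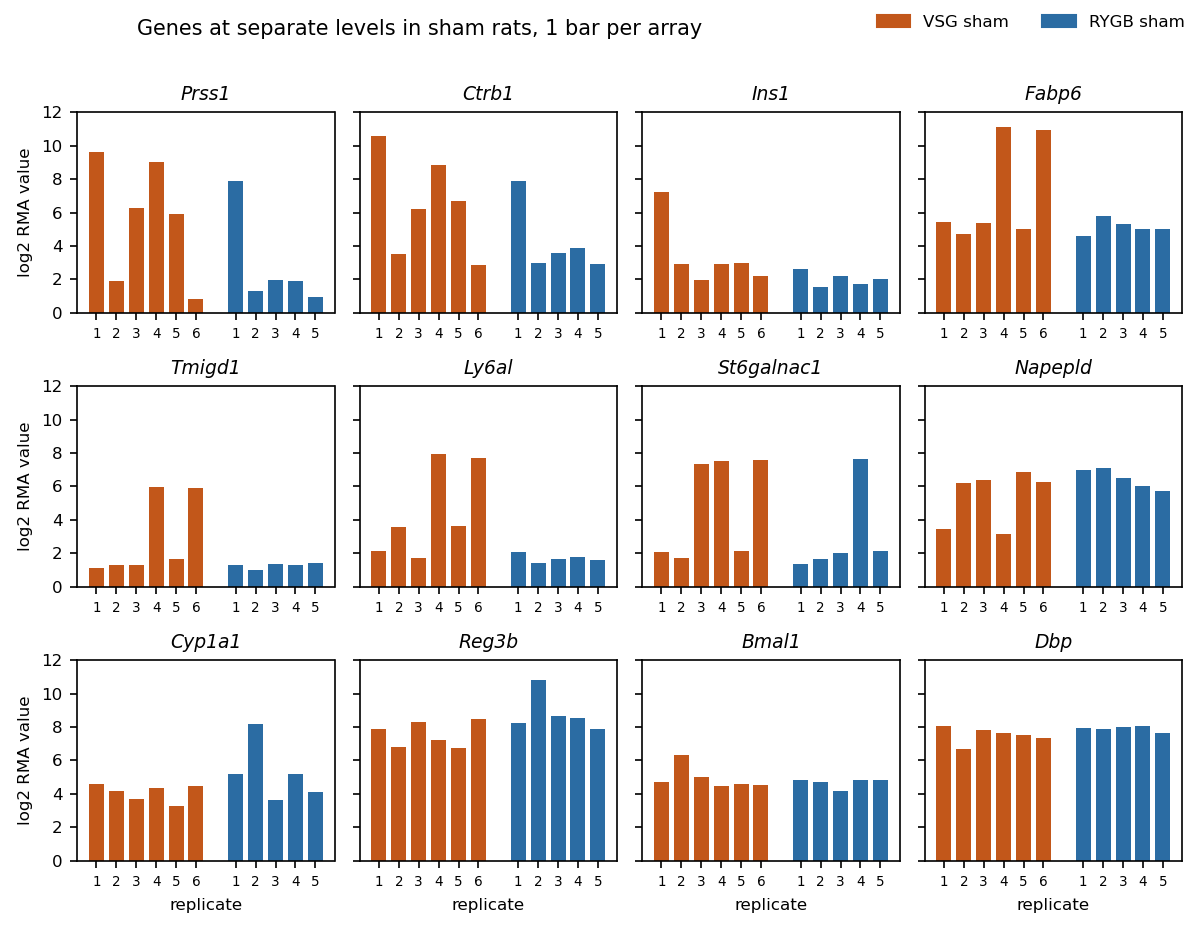
The log2 RMA value (vertical axis, from 0) of 12 genes on each sham array, 1 bar per rat, with VSG sham replicates 1 to 6 on the left of each panel and RYGB sham replicates 1 to 5 on the right. Different rats stand out for different genes: VSG sham 1 for Ins1 (7.25), VSG sham 4 and 6 for Fabp6, Tmigd1 and Ly6al, RYGB sham 2 for Cyp1a1 (8.17) and Reg3b (10.81), and VSG sham 2 for Bmal1 (6.35).

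The highest Reg3b, Reg3g and Cyp1a1 values were those of RYGB sham 2. Reg3b and Reg3g encode bactericidal C-type lectins of the epithelium. Reg3b was at 7.89, 6.79, 8.33, 7.24, 6.76 and 8.46 in VSG sham and 8.24, 10.81, 8.69, 8.56 and 7.87 in RYGB sham. Reg3g was at 7.32, 6.66, 8.04, 7.30, 6.33 and 8.57 in VSG sham and 8.04, 10.41, 8.02, 8.22 and 7.71 in RYGB sham. Reg1a, of the same family, was at 7.14 to 8.57 in VSG sham and reached 9.78 in RYGB sham 2. Cyp1a1, the oxidase switched on by the aryl hydrocarbon receptor, was at 4.59, 4.18, 3.71, 4.37, 3.27 and 4.47 in VSG sham and 5.21, 8.17, 3.65, 5.18 and 4.14 in RYGB sham. The defensin gene Defa6 was 11.63 in RYGB sham 2, within the range of the others, and the mean of the 36 measured xenobiotic genes was 5.99, below VSG sham 6 (6.02) and RYGB sham 1 (6.05). The set differences of -1.25 ± 0.51 for Reg3b, -1.11 ± 0.48 for Reg3g and -1.17 ± 0.55 for Cyp1a1 (SE) were not called (limma, adjusted p = 0.88, 0.89 and 0.94), and were -0.76, -0.63 and -0.45 without RYGB sham 2.

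Clock genes set VSG sham 2 apart in both directions. Bmal1 and Npas2, of the activating arm of the circadian loop, were 6.35 and 8.64 in this rat. In the other 10 rats they lay at 4.19 to 5.00 and 7.50 to 7.91. Dbp and Per3, which peak at another phase, were lowest in this rat, at 6.66 and 4.65, against 7.31 to 8.07 and 5.75 to 6.39 in the others. Cry2 and Per2, taken from the same list after their values were seen, were lowest there as well, at 5.23 and 6.15. Clock was 7.66 within 7.25 to 7.66, and Bhlhe40 8.90 within 8.69 to 9.09. The list's 11 genes had a median SD of 0.38, and its median difference between sets was -0.01 with 0 called (0% of all genes). The hour at which each rat was sampled is not stated in the sources used here.

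Single rats stood out in other groups too. VSG sham 6 had Glycam1, chosen after its values were seen and a ligand on the high endothelial venules of lymphoid tissue, at 5.08, against at most 2.87 in the other VSG sham rats and 1.83 to 2.62 in RYGB sham. It also had the highest values of the B cell genes Ms4a1 (4.65) and Cxcr5 (3.32), of which Cxcr5 was chosen after its values were seen. The 14 measured B and plasma cell genes averaged 4.98 in this rat, and 4.40 to 4.71 in the other VSG sham rats and 4.51 to 4.86 in RYGB sham. RYGB sham 3 had the lowest Cdx2, the intestinal master regulator gene, at 7.18, against 8.02 to 8.32 elsewhere, and the lowest Col1a1 (4.29), a collagen gene. This array and VSG sham 3 had the lowest correlation with any other sham array (0.961). VSG sham 3 had the lowest levels of the enteric neuropeptide genes Vip (4.04) and Gal (3.06) and of the early response gene Zfp36 (8.22). RYGB sham 4 had St8sia6, a sialyltransferase gene chosen after its values were seen, at 5.77, against 2.22 to 3.43 in the others.

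**Figure D4:**
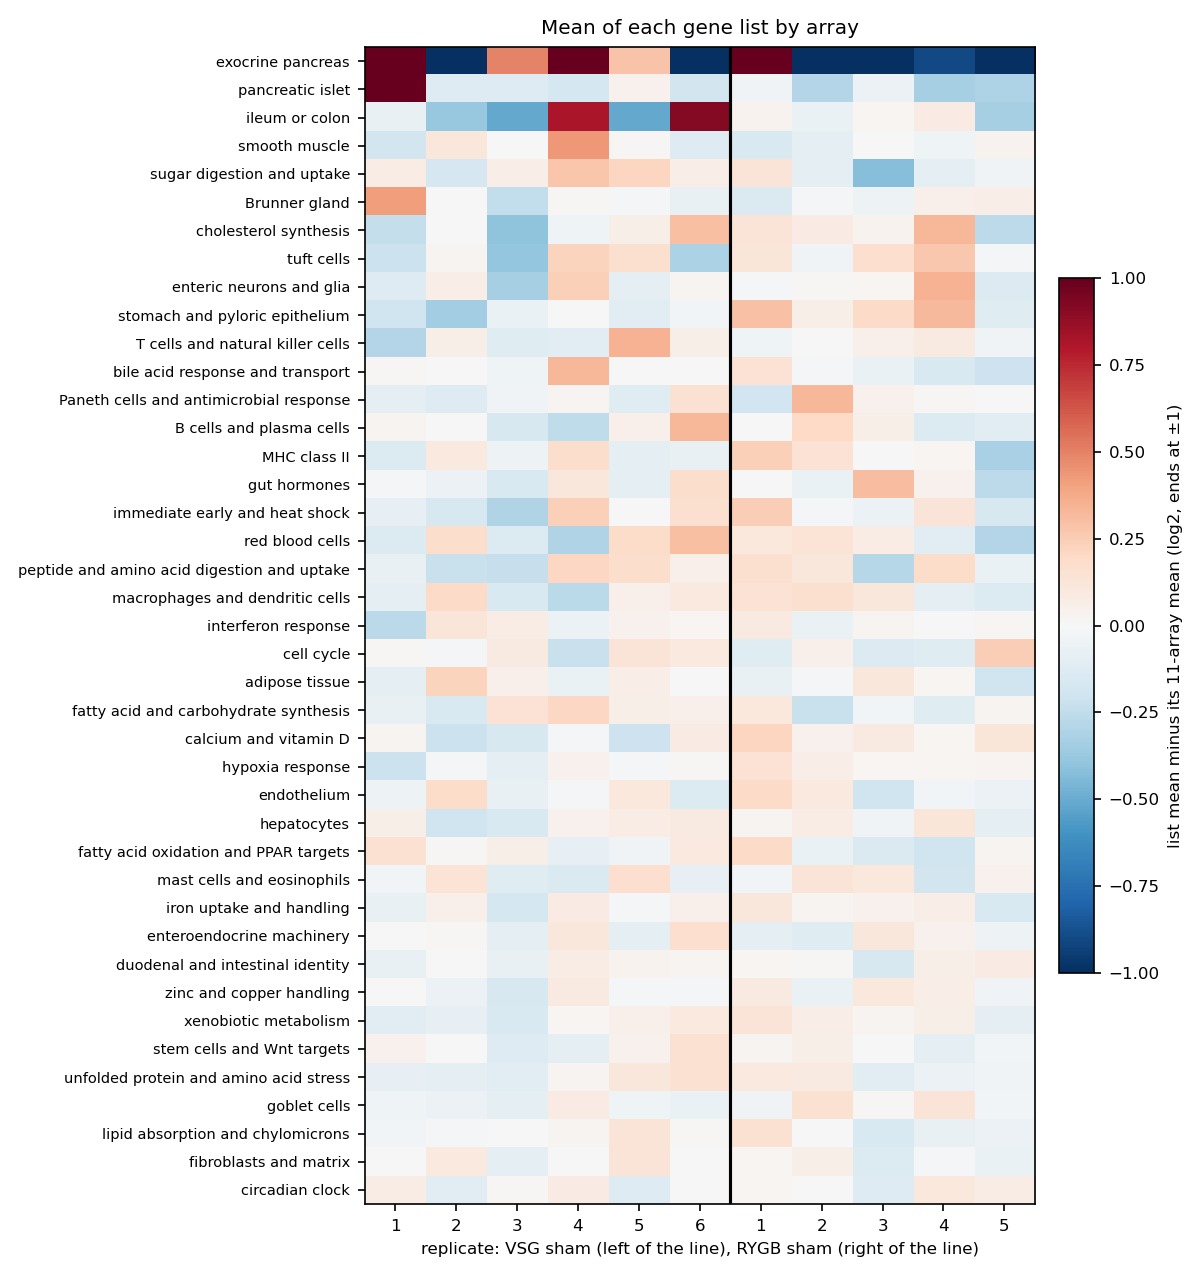
Mean log2 RMA value of each of 41 gene lists on each sham array, minus the list's mean over the 11 arrays (colour, ending at ±1), with lists ordered from the widest to the narrowest excursion, VSG sham left of the line and RYGB sham right of it. The exocrine pancreas, islet and ileum or colon lists depart furthest, each in a few rats, and the lists of lipid absorption and of the circadian clock are among the flattest, although single clock genes stood apart in both directions in VSG sham 2.

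MicroRNA genes were mostly dark on these arrays, which measure the gene or hairpin and not the mature strand. Of 26 such rows, 19 were under the array median on all 11 arrays, against 4338 of all 14557 genes. The row for Mir215, chosen after its values were seen, was at 5.37, 5.68, 5.79, 6.47, 5.49 and 6.18 in VSG sham and 5.31, 6.47, 7.20, 5.68 and 6.38 in RYGB sham, overlapping and with RYGB sham 3 highest. miR-215 is typical of intestinal epithelium. Its mature sequence is shown, in the RefSeq annotation of GRCr8, with the seed in capitals, beside miR-192-5p, the other mature rat miRNA of that table with the same seed.
rno-miR-215: aUGACCUAugauuugacagaca
rno-miR-192-5p: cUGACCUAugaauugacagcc

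The sham sets themselves were compared with limma in a model of all 29 arrays, asking how much the baseline of the surgeries differs. No gene was called: 0 of 14557 (0%) passed an adjusted p of 0.05, and the smallest adjusted p was 0.880. At an unadjusted p under 0.05 there were 757 genes (5.20%), 356 higher (2.45%) and 401 lower (2.75%) in VSG sham. No call was made in any of 23 alternatives with other normalizations, filters, priors, a fold limit or arrays left out. The fold limit of 1.5 takes a part of the main calls, so it could give only 0. The refits had 520 to 1705 rows at that unadjusted level. The arrays of the sets did not overlap for 59 genes (0.405%), 35 higher (0.240%) and 24 lower (0.165%). The median absolute difference was 0.104, and the median half-width of the 95% interval was 0.312. For 14342 genes (98.5%) the interval lay within ±1, that is, one log2 step, and for 11819 (81.2%) within 1.5-fold. An uncalled gene is thus bounded by its interval and is not shown to be equal.

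The 5 genes with the smallest p were Card9, Ly6g5b, Tmem80, Mmaa and Epdr1. Card9, an adaptor of antifungal and innate signalling, was at 4.29, 4.33, 4.51, 4.16, 4.37 and 4.20 in VSG sham and 3.74, 3.77, 3.63, 3.85 and 3.18 in RYGB sham, without overlap. Its difference was 0.67 ± 0.16 (SE), interval 0.35 to 1.00 (limma, adjusted p = 0.88). The Ly6 family gene Ly6g5b was at 2.67, 2.14, 1.88, 1.89, 1.87 and 2.40 in VSG sham and 2.51, 2.66, 2.75, 3.12 and 2.88 in RYGB sham, under the array median on all 6 VSG sham arrays and 4 of the 5 RYGB sham arrays. Tmem80 was at 2.78 to 3.77 in VSG sham and 3.33 to 4.57 in RYGB sham, and Mmaa, of mitochondrial cobalamin metabolism, at 3.88 to 4.33 in VSG sham and 4.25 to 5.27 in RYGB sham. Epdr1, related to ependymin, was at 3.03 to 3.82 in VSG sham and 2.32 to 3.05 in RYGB sham. The differences were -0.64, -0.76, -0.60 and 0.70 for Ly6g5b, Tmem80, Mmaa and Epdr1, each with an adjusted p of 0.88.

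In rats that had surgery, the same contrast of VSG against RYGB called 427 genes (2.93%), 261 higher (1.79%) and 166 lower (1.14%), and there surgery and set cannot be told apart. Card9 differed there by -0.10, Ly6g5b by -0.24, Tmem80 by -0.29, Mmaa by 0.03 and Epdr1 by -0.23. The sham difference minus the surgical one was tested in the same model over all genes, where 57 (0.392%) passed. The result of that subtraction was above 0 for 13 of them (0.0893% of all genes) and below 0 for 44 (0.302%). None of the 5 genes named above passed (limma, smallest adjusted p = 0.133). Lct averaged 7.98 after VSG and 7.53 after RYGB, and Cybrd1 11.90 after VSG and 12.15 after RYGB. Reg3b averaged 6.62 after VSG and 7.46 after RYGB. Of the 259 genes named here 8 passed the test of the sham difference minus the surgical one. They were Cidec, Dgat2, Pcna, Spink4, Insig1, Bhlhe40, Vip and Slc25a28, none of them called between the shams. The smallest adjusted p among them was that of Cidec, with a difference of -0.03 between the shams and of 1.91 between VSG and RYGB after surgery, and Dgat2 had 0.11 between the shams and 1.67 after surgery.

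Large differences were few. Of 29 genes differing by at least 1, 23 were higher in VSG sham. These 23 were 14 genes of the pancreas list, the trypsinogen-type genes Prss3b and PRSS2, Fabp6, Tmigd1, Ly6al, St6galnac1, Ins1, Ins2 and Lct. The 6 lower ones were Reg3b, Reg3g, Cyp1a1, Napepld, Tff1 and Ccl20. Ccl20, an epithelial chemokine of lymphoid follicles chosen after its values were seen, was at 4.44, 4.85, 3.97, 6.27, 4.58 and 5.80 in VSG sham and 5.93, 5.83, 6.00, 6.78 and 7.38 in RYGB sham. VSG sham 4 was the one VSG sham rat inside the RYGB sham range. The difference was -1.40 ± 0.42 (SE), interval -2.26 to -0.54 (limma, adjusted p = 0.88). Tff1, a pyloric trefoil peptide, was at 5.37, 3.87, 7.84, 6.54, 6.01 and 7.38 in VSG sham and 8.18, 6.06, 7.74, 7.59 and 6.68 in RYGB sham. Capn8, a calpain gene of gastric surface cells, was at 3.99, 4.34, 3.18, 4.20, 3.91 and 4.46 in VSG sham and 5.42, 5.16, 5.17, 4.62 and 4.46 in RYGB sham, and the sets touched without overlap (difference -0.95 ± 0.37, SE). The mean of the 10 pyloric and gastric genes ran over 2.65 to 3.01 in VSG sham and 2.87 to 3.32 in RYGB sham. Of the 10 differences 7 were below 0, against 7321 of 14557 over all genes, and 0 were called (0% of all genes).

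**Figure D5:**
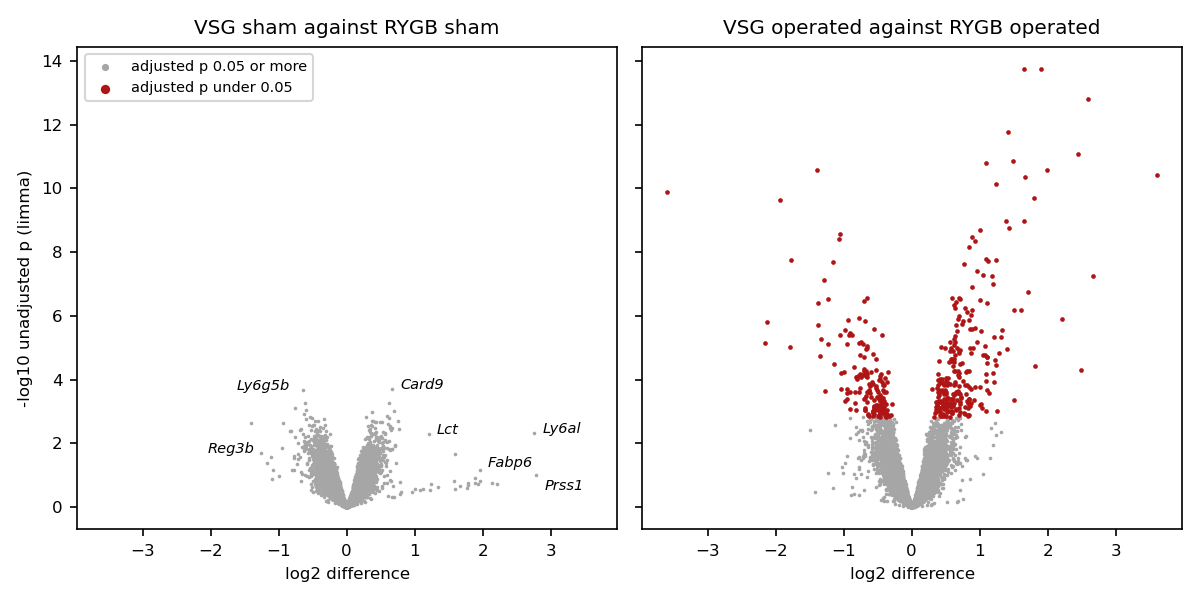
Log2 difference (horizontal axis) against -log10 of limma's unadjusted p (vertical axis) for 14557 genes, VSG sham against RYGB sham on the left and VSG operated against RYGB operated on the right. No gene in the left panel passes an adjusted p of 0.05, whereas 427 do on the right. The wide sham differences labelled for Prss1, Ly6al and Fabp6 have modest p.

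Of the 41 lists 40 had a median difference between -0.20 and 0.17, and the exocrine pancreas list had 1.41. The tuft cell list had all 9 measured differences below 0 (median -0.14), led by Gng13 (-0.53), Alox5 (-0.36) and Pou2f3 (-0.19), with 0 called and 0 at an unadjusted p under 0.05, where 2.75% of all genes were lower. Cholesterol synthesis had 11 of 12 below 0 (median -0.11), among them Idi1 (-0.33) and Fdft1 (-0.19). The hypoxia list had 13 of 16 below 0 (median -0.11). Over all genes 7321 of 14557 were below 0. Genes of a list are measured in the same rats, so such counts are descriptions.

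Rats of the sets were about equally alike. The median SD over genes was 0.231 in VSG sham and 0.230 in RYGB sham, against 0.225 after VSG and 0.237 after RYGB, and the VSG sham SD was the higher one for 50.5% of genes. An SD of at least 1 was reached by 43 genes in VSG sham and 25 in RYGB sham, which have 6 and 5 rats. The first and second principal components of the 11 arrays held 17% and 13% of the variance. By array, VSG sham 1 had 26 genes at least 1 above all other sham rats, VSG sham 4 had 12 and RYGB sham 3 had 10.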

How the data were processed

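Total duodenal RNA was hybridised to Affymetrix arrays, 1 per rat. The deposited table holds log2 values after RMA (background correction, quantile normalization and probe set summary), made by the authors with Affymetrix Expression Console 1.3.0.187, per the submitters' processing notes. Neither genome build nor chip definition is stated in the labels. Of 36685 rows, 14824 had 1 gene symbol in the platform annotation, 829 had several and 21032 were not named here. The row with the highest mean over 29 arrays was kept for each of 14557 genes, and 234 genes had more than 1 row.

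One model with 5 group means was fitted to the 29 arrays with limma 3.58.1 (R 4.3.3), with Benjamini-Hochberg adjustment over all genes, 2-sided, and a threshold of 0.05. It was checked on simulated data. Spread was the SD within sets, pooled. The labels present the rats as biological replicates. The number of arrays limits the precision.

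The text names the 5 smallest p-values of the sham comparison (none was called), the 25 brightest and 25 most variable genes, the 15 steadiest of the 500 brightest, each list's 3 brightest and 2 most variable members, and Cybrd1, Slc40a1, Heph, Tfrc, Hmox1, Gcg, Gip, Ghrl, Prss1 and Pdx1. Receptor families of smell, immunoglobulin and T cell receptor genes, unnamed loci, ribosomal protein and miRNA rows were passed over. Genes outside this rule are said to be chosen after their values were seen, with exceptions. The exceptions include Gkn1, Gkn2, Atp4b, Hoxb13, Slc10a2, Slc30a8 and Clock, which are outside the rule and carry no such mark. The 41 gene lists and the members were chosen with earlier results of these data known. Alternatives were a filter on low genes, averaged rows, another prior, scalings, array weights, the pancreas mean as covariate, a replicate block and arrays left out. Text processing used Python 3.11.15.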

Additional observations from a re-analysis of the deposited data

Results flagged for a closer look

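Within each set, the highest and the lowest rat of every gene named in the text were compared with the rest by Dixon's ratio of gap to range at its 95% level. Of 518 combinations of gene and set examined, 50 (9.7%) had such a rat. Chance gives about 1 in 20, and many of the genes were named because they varied, so the excess is not a result. No cause was weighed for any of them.

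In VSG sham 1 the insulin and trypsinogen-type genes stood out. VSG sham 1 was the highest of its set for Ins1 at 7.25 (next 2.97), Ins2 at 6.81 (next 3.71) and Prss3bl1 at 6.24 (next 2.60). In VSG sham 2 the clock genes stood out, together with others. VSG sham 2 was the highest of its set for Bmal1 at 6.35 (next 5.00), Npas2 at 8.64 (next 7.84) and Sparc at 9.48 (next 9.31). VSG sham 2 was the lowest of its set for Ace at 9.14 (next 10.06), Atf3 at 4.51 (next 5.59) and Cdx2 at 8.02 (next 8.15). VSG sham 2 was the lowest of its set for Cry2 at 5.23 (next 6.30), Per3 at 4.65 (next 5.75) and Por at 9.35 (next 9.69). In VSG sham 3 mostly low values stood out. VSG sham 3 was the highest of its set for Ptf1a at 2.58 (next 1.95). VSG sham 3 was the lowest of its set for Acaa2 at 9.61 (next 9.81), Bgn at 7.49 (next 7.93) and Gal at 3.06 (next 4.65). VSG sham 3 was the lowest of its set for Serpina1 at 3.12 (next 3.91), Slc40a1 at 9.29 (next 9.75) and Slc51a at 8.51 (next 9.01). VSG sham 3 was the lowest of its set for Sst at 8.39 (next 8.79) and Zfp36 at 8.22 (next 9.51). In VSG sham 4 genes of several kinds stood out. VSG sham 4 was the highest of its set for RT1-Ba at 7.51 (next 7.12) and Thrsp at 2.98 (next 1.67). VSG sham 4 was the lowest of its set for Jchain at 10.47 (next 10.85). In VSG sham 6 lymphoid genes stood out. VSG sham 6 was the highest of its set for Cxcr5 at 3.32 (next 2.51) and Glycam1 at 5.08 (next 2.87).

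In RYGB sham 1 the digestive enzymes stood out, as the one rat of its set with a raised pancreas mean. RYGB sham 1 was the highest of its set for Cel at 6.57 (next 2.85), Cidec at 9.47 (next 9.02) and Cpa1 at 5.29 (next 1.94). RYGB sham 1 was the highest of its set for Ctrb1 at 7.91 (next 3.88), Ctrc at 6.44 (next 4.32) and PRSS2 at 7.10 (next 2.84). RYGB sham 1 was the highest of its set for Prss1 at 7.92 (next 1.96) and Rnase1 at 4.51 (next 2.55). RYGB sham 1 was the lowest of its set for Defa8 at 10.80 (next 11.03) and Slc7a2 at 1.80 (next 2.17). In RYGB sham 2 the Reg3 genes stood out. RYGB sham 2 was the highest of its set for Reg3b at 10.81 (next 8.69) and Reg3g at 10.41 (next 8.22). RYGB sham 2 was the lowest of its set for Mdh2 at 11.37 (next 11.65). In RYGB sham 3 Cdx2 and others stood out. RYGB sham 3 was the highest of its set for Atox1 at 10.92 (next 10.59) and Tff3 at 11.31 (next 10.87). RYGB sham 3 was the lowest of its set for Bmal1 at 4.19 (next 4.68), Cdx2 at 7.18 (next 8.12) and Col1a1 at 4.29 (next 5.28). In RYGB sham 4 sialyltransferase genes stood out. RYGB sham 4 was the highest of its set for Chgb at 9.03 (next 8.60), St6galnac1 at 7.64 (next 2.16) and St8sia6 at 5.77 (next 3.22). In RYGB sham 5 only small gaps were found. RYGB sham 5 was the lowest of its set for Atp5mpl at 10.73 (next 10.85), Cd4 at 4.92 (next 5.38) and Cdc42 at 9.38 (next 9.48).

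For 8 of the 259 named genes the difference between VSG and RYGB in shams differed from that after surgery (limma, adjusted p from 1.24e-06 to 0.0303). Over all genes 57 of 14557 (0.392%) passed. The gene lists were chosen with earlier results of these data known, so these shares are not compared. In order of adjusted p, the sham difference minus the surgical one was as follows. It departed for Cidec by -1.94 (-0.03 in shams and 1.91 after surgery), Dgat2 by -1.56 (0.11 in shams and 1.67 after surgery) and Pcna by 1.09 (0.04 in shams and -1.06 after surgery). It departed next for Spink4 by -2.01 (-0.51 in shams and 1.5 after surgery), Insig1 by -1.25 (-0.06 in shams and 1.19 after surgery) and Bhlhe40 by -0.68 (-0.04 in shams and 0.64 after surgery). After these it departed for Vip by -1.55 (-0.55 in shams and 1.01 after surgery) and Slc25a28 by -0.71 (-0.30 in shams and 0.41 after surgery). No cause was weighed.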

How the results depend on the processing

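The sham comparison gave 0 calls under each of 23 alternatives (limma), with smallest adjusted p-values from 0.117, over all 36685 rows, to 0.999. The operated comparison gave 389 to 497 calls over 7 alternatives, against 427. The sham difference minus the surgical one passed for 49 to 82 genes over 7 alternatives, added after the data were seen, against 57. Of the 25 brightest genes 24 to 25 stayed in place, and of the 25 most variable 17 to 25. The median SD ran from 0.234 to 0.251. Capn8, Card9, Ccl20, Cybrd1, Lct, Mmaa, Epdr1 and Tmem80 kept their direction under 21 alternatives, and Ly6g5b under 20, since the filter on low genes removed it. Cyp1a1 ran from -1.58 to -0.45, Ctrb1 from 0.17, with the pancreas mean that includes it as covariate, to 3.12 and St6galnac1 from 1.13 to 2.94.

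Differences near 0 changed sign, and the cause was not tested. Gip (-0.006) was 0.015 after quantile normalization, 0.032 with array weights, 0.012 with the pancreas mean as covariate and 0.079 without arrays above 6 in it. Ghrl was 0.031 with array weights, and Heph was -0.042 without arrays above 6 in the pancreas mean. With 1 rat left out at a time, Gip ran from -0.090 to 0.106, Ghrl from -0.135 to 0.102, Heph from -0.018 to 0.075, Hmox1 from -0.256 to 0.090 and Tfrc from -0.017 to 0.098.

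The sets share replicate numbers, but only 1 of 5 same-numbered pairs correlated above 0.1 in their deviations (-0.051 to 0.143), and 2 of 5 rats had their own number as best partner. With the replicate block there were 0 calls, and Gip was 0.014. Brightness near background limits the dim genes, and 6 against 5 rats limit the precision.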
